A study of Mus musculus with 12 samples.

Results

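The nuclear genes of the respiratory chain and of the ATP synthase were followed in caput epididymidis of mice labelled as knockout for Gpx5, the gene of a glutathione peroxidase secreted by the epididymis. Members were all genes of the transcriptome table whose symbol begins with Nduf (complex I), Uqcr (complex III), Cox4 to Cox8 (complex IV) or Atp5 (complex V, the ATP synthase). This gave 86 of the 22021 genes, written in 95 transcripts, and each gene was represented by the transcript with the highest mean RPKM (reads scaled by transcript length and library size). The tissue came from Gpx5 knockout (KO) and wild-type (WT) C57BL/6 mice. Both transcriptome libraries are from the caput at 13 months, with tissue of 7 animals of each genotype pooled into 1 library. The caput was pierced with a needle and left in buffer to let spermatozoa out before RNA was extracted, per the labels' protocols. The 10 small RNA libraries form KO and WT pairs, of caput at both 2 and 13 months and of corpus, cauda and testis at 13 months alone, and in them cauda was emptied of spermatozoa like caput while corpus and testis were taken directly. With 1 library per genotype, no value below has a replicate error and no difference was tested; intervals are at 95% and cover counting error only.

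Complex I takes electrons from NADH, complex III passes them to cytochrome c, and complex IV hands them to oxygen, each pumping protons across the inner mitochondrial membrane. The ATP synthase lets these protons flow back and makes ATP. Most subunits are encoded in the nucleus, and several small subunits of complex IV exist as paralogues: a ubiquitous form, and forms used in striated muscle, in lung or under low oxygen, or in male germ cells. Cox8c, Cox7b2 and Cox6b2 are the testis forms of Cox8a, Cox7b and Cox6b1. The epithelium of the caput is known for heavy secretion into the fluid that surrounds maturing sperm.

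A difference is given throughout as log2(RPKM + 1) in KO minus WT, and understates the change of genes with low levels. A gene was called higher or lower when the difference reached 1, that is 2-fold on the RPKM + 1 scale, and a gene was tested for a call if either library reached 1 RPKM. Of 15000 such genes, 22.1% were called lower and 2.77% higher, with a median difference of 0.05. Of the 86 members, 83 passed this filter; Cox6a2, Cox8b and Cox4i2 did not. Cox8c, Cox7b2, Ndufa4l2 and Cox7a1 passed it through the WT library alone. The members called lower were 6 and those called higher 3, and the median difference of the 83 was 0.19. When differences were centred on the median of the caput secretory genes, 34 of the 83 members were lower and 0 higher. When centred on the cytosolic ribosomal protein genes, 18 were lower and 0 higher. Over the 15000 tested genes, 8078 were lower and 8 higher after the first centring, and 6204 lower and 13 higher after the second. These centrings moved the median of all tested genes by 1.12 and 0.85.

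Gpx5 itself, the targeted gene, had 918 RPKM in KO caput and 8474 RPKM in WT caput, a difference of -3.21; which part of the gene is deleted is not given in the sources used here. The libraries also differed in markers of cells other than the caput epithelium. All 10 spermatid markers were called lower, with a summed level of 169 RPKM in KO and 10559 RPKM in WT, and all 8 meiotic markers were called lower, with 18.9 RPKM in KO and 1386 RPKM in WT. All 6 markers of Leydig cells, the steroid-making cells of the testis, were called lower as well, summing to 11.8 RPKM in KO and 362 RPKM in WT. Of these markers 1 of the spermatid, 4 of the meiotic and 3 of the Leydig list were tested through the WT library alone, and none was at 0 in either library. Of the 4 Sertoli markers tested, 2 (Dhh and Wt1) were called lower, both tested through WT alone, while Clu was at 0.97 and Sox9 at 0.29. Clu had 2961 RPKM in KO and 1507 RPKM in WT, levels within the range of the caput secretory genes, so its value need not reflect Sertoli cells. The 6 adipocyte markers summed to 1.04 RPKM in KO and 7.61 RPKM in WT; the 3 tested passed through WT alone, 2 of them called lower, and Adipoq and Plin1 were at 0 in KO. The caput secretory genes ran the other way, with 10 of 14 called higher and sums of 40355 RPKM in KO and 17003 RPKM in WT. Medians were 0.87 for 4 basal cell markers, 0.56 for 5 smooth muscle markers, 0.23 for 4 clear cell markers, 0.20 for 3 leukocyte markers and 1.01 for 3 erythroid markers. The clear cell list was split, with 2 markers above 0 and 2 below, and Car2 was called lower at -1.06. In the erythroid list 2 were called higher and Alas2 was at -0.26. No basal cell, smooth muscle or leukocyte marker was called. The part of any of these lists in the differences of the members was not tested.

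**Figure D1:**
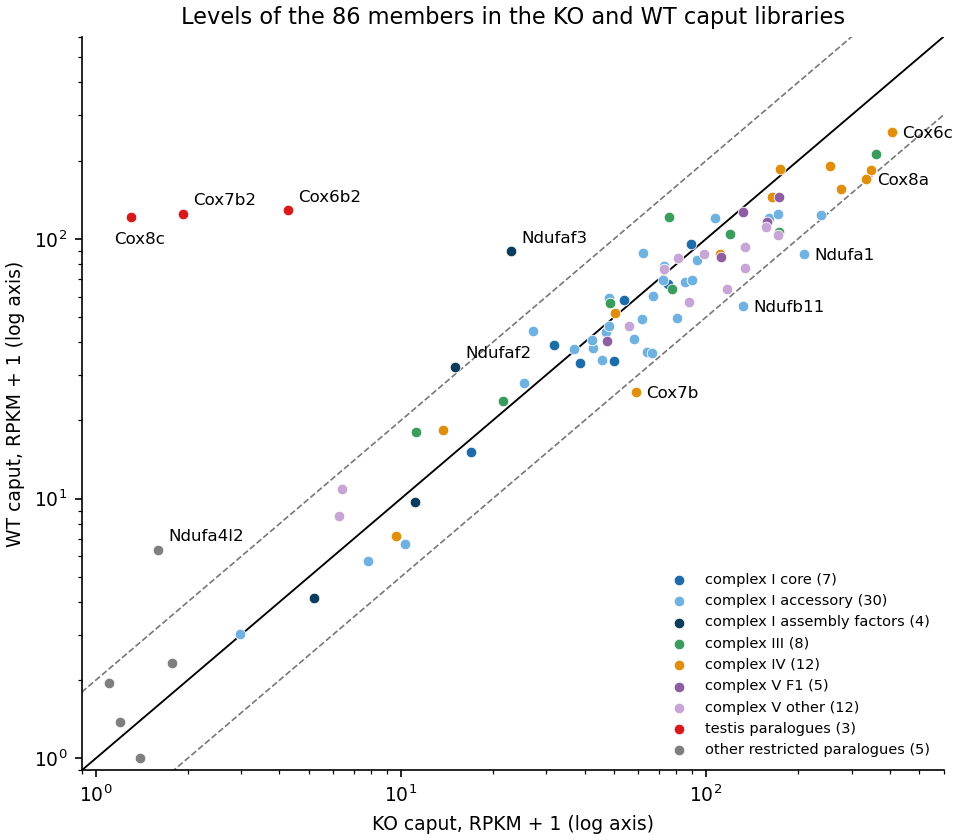
RPKM + 1 of each member in KO caput (horizontal log axis) against WT caput (vertical log axis), 1 point per gene, coloured by group with the number of members in brackets. The solid line marks equal levels and the dashed lines a 2-fold difference; Cox8c, Cox7b2 and Cox6b2 stand alone at the upper left, with 0.302 to 3.27 RPKM in KO and 121 to 128 RPKM in WT.

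The 3 testis paralogues of complex IV were at most a few RPKM in KO caput and above 100 RPKM in WT caput. Cox8c, the testis form of subunit 8, had 0.302 RPKM in KO caput, from 2 reads, against 120.8 RPKM in WT caput, from 825 reads. Cox7b2 had 0.925 RPKM from 7 reads in KO and 124.1 RPKM from 967 reads in WT. Cox6b2, whose protein lies on the cytochrome c side of the enzyme, had 3.27 RPKM from 21 reads in KO and 128.0 RPKM from 847 reads in WT. In each of the 3 genes the KO value was far below the WT value, and the WT values lay close to each other. The read ratio was 400-fold lower in KO for Cox8c, with a counting interval of 111-fold to 3312-fold, 134-fold lower for Cox7b2 (64.8 to 334), and 39.2-fold lower for Cox6b2 (25.4 to 63.6). The differences were -6.55, -6.02 and -4.92, inside or just past the range of the 10 spermatid markers, -6.54 to -4.53. In pooled tissue, fewer cells of a type and less RNA per cell cannot be told apart.

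The ubiquitous counterparts did not follow. Cox8a had 334 RPKM in KO caput and 170 RPKM in WT caput, a difference of 0.97. Cox7b had 57.8 RPKM in KO and 24.7 RPKM in WT, a difference of 1.19, and was called higher. Cox6b1 had 275 RPKM in KO and 154 RPKM in WT, a difference of 0.83. Each counterpart was thus at the higher level in the library in which its testis form was at the lower one. After centring on the caput secretory genes the differences of Cox8a and Cox6b1 turn negative, and on the ribosomal genes that of Cox6b1 does.

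Expressed per length, the testis form made up 0.0901% of Cox8c plus Cox8a in KO caput (0.0109 to 0.325) and 41.6% in WT caput (39.5 to 43.7). For Cox7b2 plus Cox7b the testis share was 1.58% in KO (0.638 to 3.21) and 83.4% in WT (81.6 to 85.0), so that in WT the testis form was the more abundant transcript of this subunit. For Cox6b2 plus Cox6b1 it was 1.17% in KO (0.729 to 1.79) and 45.4% in WT (43.1 to 47.6). These shares do not depend on the scaling of either library. The summed level of a pair does depend on that scaling, and the sums were not centred on any list. In each pair the sum differed less than the testis form alone. Cox8c plus Cox8a came to 335 RPKM in KO and 290 RPKM in WT, and Cox6b2 plus Cox6b1 to 278 RPKM in KO and 282 RPKM in WT. Cox7b2 plus Cox7b came to 58.7 RPKM in KO and 149 RPKM in WT.

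Germ cell isoforms of other mitochondrial proteins, which are not members, showed the same arrangement. Cyct, the testis cytochrome c, made up 0.278% of Cyct plus Cycs in KO and 63.8% in WT. Slc25a31, a germ cell ADP/ATP carrier, made up 0.106% of its sum with Slc25a4 in KO and 11.2% in WT. Pdha2, the testis form of a pyruvate dehydrogenase subunit, made up 0.485% of its sum with Pdha1 in KO and 54.7% in WT. All 6 testis genes were called lower, but all except Cox6b2 were tested only because of their WT level, so the count is a description. All 6 counterparts had a difference above 0, though Cox7b alone stays above 0 after centring on the caput secretory genes, and Cox7b, Cox8a and Pdha1 on the ribosomal ones.

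**Figure D2:**
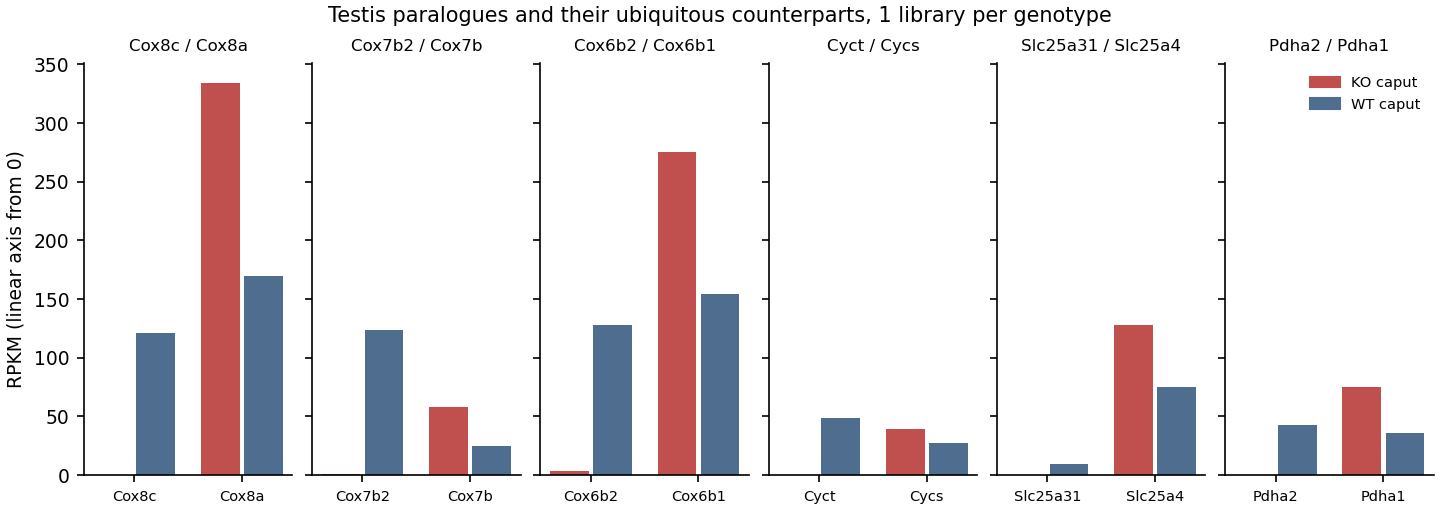
RPKM of each testis paralogue (left pair of bars in a panel) and of its ubiquitous counterpart (right pair) in KO caput (red) and WT caput (blue), 1 library each and so without error bars. In each panel the testis gene is near 0 in KO and the counterpart is higher in KO, as with Cox8a at 334 RPKM in KO and 170 RPKM in WT.

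The sequences before the start of these genes are shown for the pairs Cox7b2 and Cox7b and Cox6b2 and Cox6b1. Each pair sets a testis form beside its counterpart. Cox6a1, the ubiquitous subunit 6a, was picked as the most abundant member with an NRF1 match before its start. Most members with a window had no such match. All sequences are the 250 bases before the start of each gene, 5′ to 3′ on the strand of the gene, from RefSeq on GRCm38.p6. The windows are chr5:71548206-71548455 (minus strand) for Cox7b2, chrX:106015450-106015699 (plus) for Cox7b, chr7:4753095-4753344 (minus) for Cox6b2, chr7:30626115-30626364 (minus) for Cox6b1 and chr5:115348959-115349208 (minus) for Cox6a1. Capitals mark matches, on either strand, to the 6 motifs searched, which are named NRF1, ETS, YY1, CRE, TATA and CCAAT; all but the NRF1 consensus are spelled out with their shares below the sequences.
Cox7b2: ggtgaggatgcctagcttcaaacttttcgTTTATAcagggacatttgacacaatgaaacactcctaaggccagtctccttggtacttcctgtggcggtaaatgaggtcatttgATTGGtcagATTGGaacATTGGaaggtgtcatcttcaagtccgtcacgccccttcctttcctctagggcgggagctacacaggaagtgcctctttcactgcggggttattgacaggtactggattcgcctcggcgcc
Cox7b: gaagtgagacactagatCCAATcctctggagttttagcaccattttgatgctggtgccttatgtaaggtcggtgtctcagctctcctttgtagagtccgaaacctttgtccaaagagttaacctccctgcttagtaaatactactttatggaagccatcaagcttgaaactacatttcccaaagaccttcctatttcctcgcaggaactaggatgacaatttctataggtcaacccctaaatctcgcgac
Cox6b2: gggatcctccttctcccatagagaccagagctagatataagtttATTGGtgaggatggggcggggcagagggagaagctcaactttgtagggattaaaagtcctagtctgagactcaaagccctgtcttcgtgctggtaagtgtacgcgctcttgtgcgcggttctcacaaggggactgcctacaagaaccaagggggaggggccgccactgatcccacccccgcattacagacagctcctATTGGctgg
Cox6b1: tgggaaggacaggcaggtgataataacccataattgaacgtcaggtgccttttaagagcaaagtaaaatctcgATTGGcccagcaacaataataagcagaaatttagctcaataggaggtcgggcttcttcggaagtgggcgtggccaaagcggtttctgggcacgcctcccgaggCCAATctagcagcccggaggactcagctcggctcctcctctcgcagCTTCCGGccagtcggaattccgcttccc
Cox6a1: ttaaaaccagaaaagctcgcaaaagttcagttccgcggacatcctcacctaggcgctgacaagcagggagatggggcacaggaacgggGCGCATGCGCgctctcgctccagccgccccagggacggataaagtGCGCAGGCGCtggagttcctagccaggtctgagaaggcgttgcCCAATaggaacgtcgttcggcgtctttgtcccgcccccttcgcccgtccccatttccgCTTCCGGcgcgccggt

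In these windows Cox7b2 held 3 CCAAT matches and a TATA match, Cox6b2 held 2 CCAAT matches, and neither held an NRF1, ETS, YY1 or CRE match. Cox7b held 1 CCAAT match and likewise none of those 4 motifs, and it had 5 CpG in the longer window searched against 10 in Cox7b2, so this pair did not differ in them as Cox6b2 and Cox6b1 did. Cox6b1 held CCAAT matches that begin 177 and 74 bases before the start, and an ETS match that begins 28 bases before it. Cox6a1 held 2 NRF1 matches, the longest capital runs in its line, that begin 162 and 117 bases before the start. It also held a CCAAT match that begins 74 bases before the start and an ETS match that begins 16 bases before it. Nuclear respiratory factor NRF1 and ETS factors of the GABP type are textbook activators of respiratory chain genes. Windows of 300 bases, from 250 before to 50 after the start, were matched for 71 of the 86 members, 67 of them other than restricted paralogues. The NRF1 motif stood in 22.4% of the 67, in 9.80% of the 11403 tested genes with a window and in 4.78% of all 27025 windows. The ETS motif, searched as CCGGAAG, stood in 20.9% of the members, in 16.8% of the tested genes and in 9.12% of all windows. The YY1 motif, searched as AAGATGGCG, stood in 10.4% of the members, 2.91% of the tested genes and 1.49% of all windows. The CRE motif, searched as TGACGTCA, stood in 5.97% of the members, 3.13% of the tested genes and 1.88% of all windows. The TATA motif, searched as TATAAA, stood in 7.46% of the members, 7.88% of the tested genes and 14.2% of all windows. The CCAAT motif, searched by its letters, stood in 43.3% of the members, 39.4% of the tested genes and 37.9% of all windows. The NRF1 and YY1 shares were those that differed most from the tested genes in proportion. The last letters of the ETS motif can overlap the first letters of the YY1 motif. Of the 4 restricted paralogues with a window (Cox7b2, Cox6b2, Cox7a1 and Cox8b), 0 held an NRF1, ETS, YY1 or CRE match, and their median number of CpG was 8.5 per window, against 20 in the 67 members. The tested genes had a median of 19. A match describes letters and does not show a bound site.

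The 5 paralogues of other tissues were low in both libraries. Ndufa4l2, a form of Ndufa4 known to be induced under low oxygen, had 0.597 RPKM from 8 reads in KO caput and 5.36 RPKM from 74 reads in WT caput and was called lower, with a difference of -1.99. Its counterpart Ndufa4, named for complex I and now counted with complex IV, had 237 RPKM in KO and 122 RPKM in WT, a difference of 0.95 that turns negative when centred on the caput secretory genes. Ndufa4l2 was thus 0.251% of the pair in KO (0.109 to 0.495) and 4.20% in WT (3.29 to 5.27). The muscle forms were at the level of single reads: Cox7a1 had 4 reads in KO and 7 in WT, Cox6a2 had 1 in KO and 9 in WT, and Cox8b had 2 in KO and 0 in WT. Cox4i2, the lung form of subunit 4, had 2 reads in KO and 4 in WT. Their counterparts stood at 174 RPKM in KO and 185 RPKM in WT for Cox7a2, 164 RPKM in KO and 144 RPKM in WT for Cox6a1, and 253 RPKM in KO and 189 RPKM in WT for Cox4i1. The 6 skeletal muscle markers summed to 5.20 RPKM in KO and 3.18 RPKM in WT, with Myh4 at 0 in both libraries and Tnnt3 at 0 in KO; Mb, the 1 marker tested, had 3.71 RPKM in KO and 2.16 RPKM in WT.

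The remaining 78 members, those other than the 8 restricted paralogues, were expressed at 1.97 to 406 RPKM in KO, with a median of 71.3 RPKM, and at 2.00 to 257 RPKM in WT, with a median of 61.1 RPKM. Their summed level was 7444 RPKM in KO and 5672 RPKM in WT. Reads could be recovered for 76 of them, and made up 0.528% of the KO library and 0.417% of the WT library. The median difference was 0.22, with 54 members above 0 and 24 below, against a median of 0.05 over all tested genes; after centring on the caput secretory genes the median was -0.90 and after centring on the ribosomal genes -0.62. The quartiles of the 78 were -0.07 and 0.52, against -0.81 and 0.46 over all tested genes. Of the 78, 3 were called higher and 2 lower, where all tested genes had 2.77% higher and 22.1% lower. The cytosolic ribosomal protein genes, taken by symbol without removing restricted paralogues, had a median of 0.85 over 84 genes. Among these 16 were called higher and 2 lower, with a minimum of -5.78, and 2 were tested through the WT library alone.

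**Figure D3:**
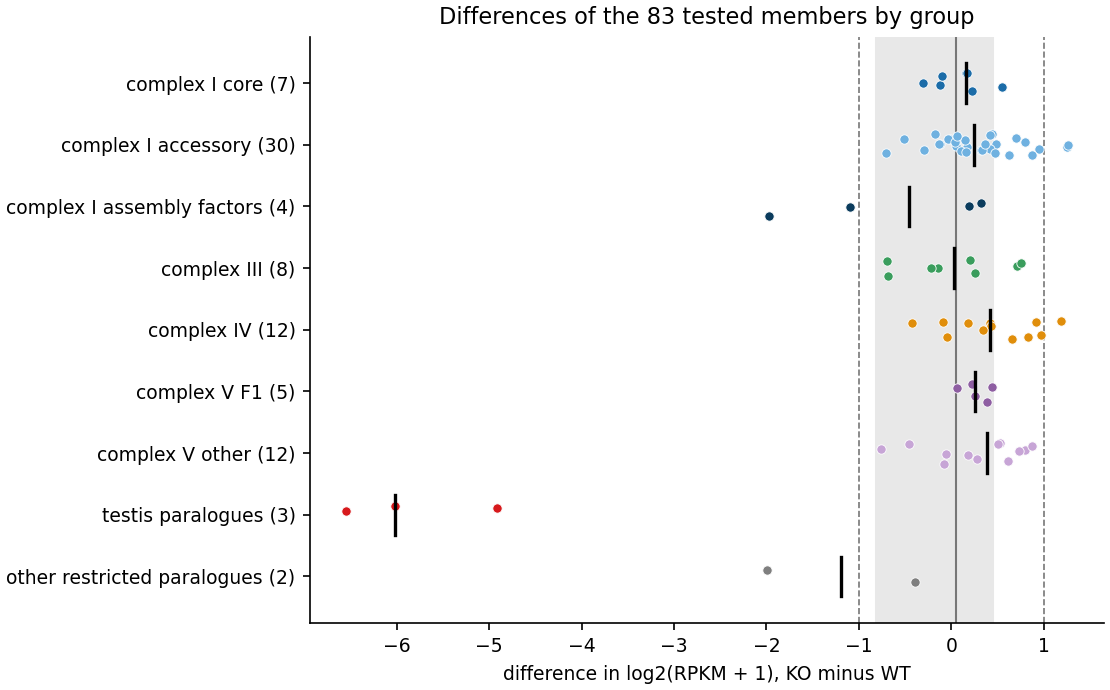
Difference in log2(RPKM + 1), KO minus WT, of each tested member by group (1 point per gene, number in brackets), with the group median as a black bar. The grey band and line are the quartiles and median of the 15000 tested genes and the dashed lines mark 2-fold. Group medians lie between -0.45 and 0.42 except for the testis paralogues at -6.02 and the other restricted paralogues at -1.19. This last median rests on Ndufa4l2 and Cox7a1 only. Both were tested through the WT library alone, which favours values below 0, as were Cox8c and Cox7b2.

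In complex I, the 7 core subunits, which carry out electron transfer, had a median difference of 0.16, and 0 were called. Ndufv2, the most abundant, had 88.3 RPKM in KO caput and 94.7 RPKM in WT caput. Ndufv1, which binds NADH, had 52.8 RPKM in KO and 57.4 RPKM in WT. The core ran between Ndufs1 at -0.31 and Ndufs8 at 0.55. The 30 accessory subunits had a median of 0.25, and 22 were above 0. Among them Ndufa6 had 171 RPKM in KO and 123 RPKM in WT, a difference of 0.47. The lowest accessory subunit was Ndufc1, with 26.0 RPKM in KO and 43.1 RPKM in WT, a difference of -0.71, and the highest were the called Ndufb11 and Ndufa1. Centring on either list turns the medians of core and accessory subunits negative.

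The assembly factors of complex I, proteins that help build the enzyme and leave it again, had a median of -0.45 over 4 genes. Of the 7 groups of ubiquitous members it was the one with a negative median, though that of complex III turns to -0.02 when centred on all tested genes, and all 7 are negative after centring on the caput secretory or ribosomal genes. Ndufaf3 had 21.9 RPKM from 326 reads in KO caput and 88.6 RPKM from 1357 reads in WT caput, a difference of -1.97. Ndufaf2 had 14.0 RPKM from 133 reads in KO and 31.3 RPKM from 305 reads in WT, a difference of -1.10. Both were called lower. The other assembly factors differed less. Ndufaf4, which works together with Ndufaf3, had 4.19 RPKM in KO and 3.15 RPKM in WT, and Ndufaf1 had 10.1 RPKM in KO and 8.69 RPKM in WT. In reads, Ndufaf3 was 4.04-fold lower in KO (3.58 to 4.57) and Ndufaf2 2.23-fold lower (1.81 to 2.75). Ndufaf4 was 1.33-fold higher in KO (1.08 to 1.64) and Ndufaf1 1.16-fold higher (0.946 to 1.43). Ndufaf3 and Ndufaf2 moved the same way as the spermatid and meiotic lists given above, and the part of germ cell RNA in their values was not tested.

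In complex III the median was 0.03 over 8 subunits, and 4 lay on each side of 0. Uqcrh, the hinge protein between cytochrome c1 and cytochrome c, had 358 RPKM in KO caput and 211 RPKM in WT caput, a difference of 0.76. Uqcr11 had 172 RPKM in KO and 105 RPKM in WT (0.71), and Uqcr10 119 RPKM in KO and 104 RPKM in WT (0.20). Uqcrc1, a core protein on the matrix side, had 10.2 RPKM in KO and 17.0 RPKM in WT, a difference of -0.69. The differences above 0 turn negative when centred on either list.

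In complex IV the median over the 12 ubiquitous symbols was 0.42, and 0.41 without Cox4nb, which RefSeq now names Emc8, a subunit of the endoplasmic reticulum membrane complex that is a member by its symbol only. Cox6c, the member with the highest level in both libraries, had 406 RPKM in KO caput and 257 RPKM in WT caput. Cox7a2l had 347 RPKM in KO and 183 RPKM in WT, a difference of 0.92. Cox5a was the lowest, with 12.8 RPKM in KO and 17.4 RPKM in WT, a difference of -0.42. Among the counterparts of the other restricted paralogues, Cox7a2 was at -0.09, Cox6a1 at 0.18 and Cox4i1 at 0.41, but Ndufa4 at 0.95 lay within the 0.83 to 1.19 of the counterparts of the testis forms, of which Cox8a is also that of Cox8b. The medians of complex IV were -0.70 and -0.42 after centring on the caput secretory and the ribosomal genes.

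In the ATP synthase, all 5 subunits of the catalytic F1 head were above 0, with a median of 0.26, and 0 were called; the median turns negative after centring on either list. Atp5e, the epsilon subunit, had 173 RPKM in KO caput and 144 RPKM in WT caput. Atp5c1, the gamma shaft, had 157 RPKM in KO and 115 RPKM in WT, a difference of 0.44. Atp5b, the catalytic beta subunit, had 131 RPKM in KO and 126 RPKM in WT, a difference of 0.06. The other 12 Atp5 symbols had a median of 0.39, negative after either centring, and 8 were above 0. Among them Atp5s and Atp5sl, which RefSeq now names Dmac2l and Dmac2, were grouped here by their symbol only. Their differences were -0.76 and -0.46, and the median without them was not computed. The c-ring genes Atp5g1, Atp5g2 and Atp5g3 encode the same mature protein from different transcripts, and Atp5g2 and Atp5g3 had differences of 0.87 and 0.53. Atp5l had 171 RPKM in KO and 102 RPKM in WT, and Atp5j2 156 RPKM in KO and 110 RPKM in WT. Atp5s was the lowest of the 12 symbols, with 5.41 RPKM in KO and 9.86 RPKM in WT. Reads from near-identical copies and processed pseudogenes of such genes could be split between them, and how the authors counted reads that fit several places is not given in the sources used here.

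The 3 members called higher were also the 3 that lie on the X chromosome, a pattern seen after the values that depends on the threshold. Ndufa1, a small accessory subunit of the membrane arm of complex I, had 208 RPKM from 1426 reads in KO caput and 86.5 RPKM from 612 reads in WT caput, a difference of 1.25. Ndufb11, another membrane arm subunit, had 132 RPKM from 1563 reads in KO and 54.3 RPKM from 665 reads in WT, a difference of 1.26. Cox7b had 806 reads in KO and 355 in WT, with the difference of 1.19 given above. In reads the 3 genes were 2.40-fold (2.18 to 2.64), 2.42-fold (2.21 to 2.66) and 2.34-fold (2.06 to 2.66) higher in KO. The highest autosomal members stayed just short of a call, at 0.97 for Cox8a, 0.95 for Ndufa4 and 0.92 for Cox7a2l. Over the 75 autosomal members other than restricted paralogues the median was 0.20. Centring on the caput secretory genes leaves 0 of the 3 called, with a median of 0.13, and centring on the ribosomal genes also leaves 0 called, with a median of 0.41. By the log2 fold changes in the authors' deposited table the autosomal genes Cox8a (1.05) and Ndufa4 (1.02) also pass 1, so the higher members are then not all X-linked.

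X-linked genes as a whole had a higher median and a larger share of higher calls than autosomal ones, with and without a filter on high levels. Their share of lower calls was the smaller one at high levels and the larger one without that filter. The median of X-linked genes turns negative after centring on the caput secretory genes and, without the filter on high levels, also on the ribosomal genes. Among genes with a mean of at least 20 RPKM, 35.4% of 113 X-linked genes were called higher and 10.6% lower, with a median of 0.88, while 6.50% of 3033 autosomal genes were called higher and 24.7% lower, with a median of 0.23. Of all 3227 genes at that level 7.53% were called higher and 24.4% lower. Without that level filter, 8.85% of 610 X-linked genes were called higher and 30.5% lower, with a median of 0.35, against 2.51% higher and 21.3% lower of 13989 autosomal genes, with a median of 0.04. X-linked genes also ran the other way: the spermatid marker Akap4 had a difference of -5.67, and Alas2 of the erythroid list one of -0.26. In male germ cells the X chromosome is silenced during meiosis, which is background knowledge, and the part of germ cell RNA in these differences was not tested.

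**Figure D4:**
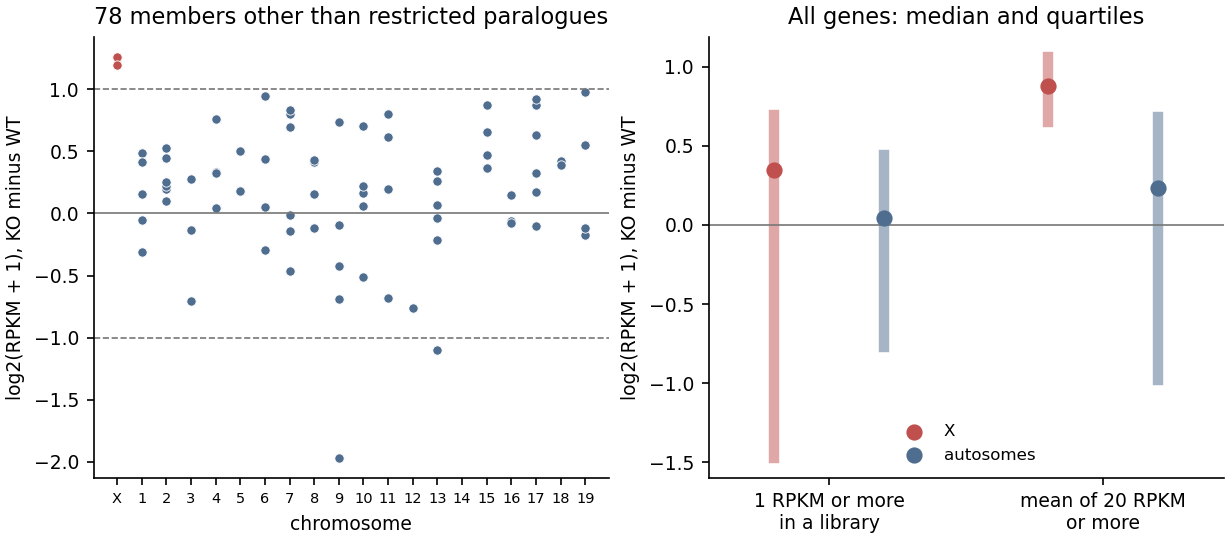
Left, difference in log2(RPKM + 1), KO minus WT, of the 78 members other than restricted paralogues by chromosome, X in red, with dashed lines at 2-fold. Right, median (dot) and quartiles (bar) of all genes on X and on autosomes under 2 level filters; at a mean of 20 RPKM or more the medians are 0.88 on X and 0.23 on autosomes.

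Complex II, carriers, assembly proteins and regulators of mitochondrial biogenesis were followed as a separate list. Of its 38 genes 34 were tested, 0 were called higher and 5 lower, with a median of 0.10. Over all tested genes 2.77% were called higher and 22.1% lower, so the lower calls were not more frequent in this list. Those lower, named after their values were seen, included the testis isoforms Cyct and Slc25a31, both tested through WT alone. The others were the complex III assembly factor Lyrm7 at -1.59, Tfam at -1.67 and Tfb1m at -1.39, the last 2 of which serve mitochondrial DNA and ribosomes. The 4 complex II genes had a median of 0.31 and the 10 complex IV assembly genes one of 0.14, and both turn negative after centring on either list. The 7 tested regulators of mitochondrial biogenesis had a median of -0.15, and the 6 tested assembly proteins of complexes III and V one of -0.11.

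Fragments of member mRNAs were counted in the small RNA libraries as a second readout. These libraries hold RNA of 18 to 40 nt, and a fragment was counted when the authors had matched it to the RefSeq mRNA of a member within their mRNA class; entries from GenBank were not tied to genes. In caput at 13 months the fragments came to 8.71 RPM (reads per 1000000) of classified reads in KO, from 160 reads, and to 38.3 RPM in WT, from 529 reads. This is a log2 ratio of -2.13 (-2.40 to -1.88). All mRNA-class reads moved with it, being 0.844% of classified reads in KO and 3.45% in WT. With mRNA-class reads as the base the members came to 1032 RPM in KO and 1110 RPM in WT, a log2 ratio of -0.10 (-0.37 to 0.15). On this base the interval of the ratio includes 0.

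In the other tissues at 13 months the ratios of classified reads were closer to 0; with mRNA-class reads as the base they were 0.42 in corpus, -0.24 in cauda and -0.26 in testis, none of them closer to 0 than in caput. By classified reads, in corpus the fragments came to 8.50 RPM of classified reads in KO (71 reads) and 5.37 RPM in WT (156 reads), a log2 ratio of 0.66 (0.24 to 1.08). In cauda they came to 11.2 RPM in KO (128 reads) and 8.40 RPM in WT (138 reads), a log2 ratio of 0.41 (0.05 to 0.77). In testis they were most frequent, at 106 RPM in KO (1042 reads) and 124 RPM in WT (1062 reads), a log2 ratio of -0.23 (-0.35 to -0.10). In caput at 2 months there were 5 reads in KO and 4 in WT, too few to compare. By classified reads, the WT caput library at 13 months lay between testis and the other epididymal libraries of that age, and the KO caput library lay among those. With mRNA-class reads as the base this placing did not hold. KO caput, at 1032 RPM, then lay above all corpus and cauda libraries, the highest being WT cauda at 954 RPM. WT caput, at 1110 RPM, lay between KO testis at 1063 RPM and WT testis at 1274 RPM.

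**Figure D5:**
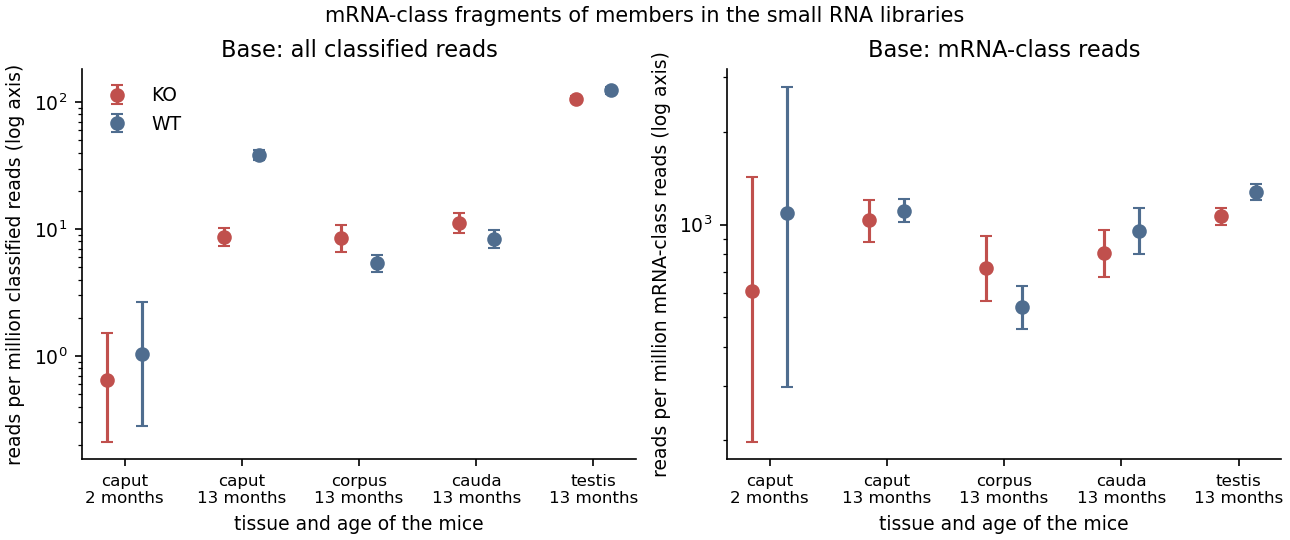
Fragments of member mRNAs in each small RNA library, KO in red and WT in blue, in RPM of classified reads (left, log axis) and in RPM of mRNA-class reads (right, log axis), with exact counting intervals at 95%. On the left the caput pair at 13 months is at 8.71 RPM in KO and 38.3 RPM in WT; on the right its intervals overlap, at 1032 RPM in KO and 1110 RPM in WT.

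The form of the fragments differed too. Sequences of 24 to 32 nt that begin with T, the length and first base typical of piRNAs, made up 10.6% of the member fragments in KO caput and 49.9% in WT caput at 13 months, and 59.2% in KO testis and 69.2% in WT testis. In corpus the share was 11.3% in KO and 5.77% in WT, and in cauda 3.13% in KO and 4.35% in WT. The same share over all mRNA-class reads was not computed, so these values do not set members apart from other mRNAs. Fragments of Cox8c were 0 in KO caput and 11 in WT caput, while testis gave 26 in KO and 21 in WT. With 3 counts put in for the KO caput library, KO was 4.87-fold lower by classified reads and 1.19-fold lower by mRNA-class reads. These folds take the 11 WT reads as exact, so they are not lower limits, and the second sets no direction. Cox7b2 and Cox6b2 gave at most 3 fragments in any library.

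The 4 members with most mRNA-class fragments in testis, picked by that count, had both high and low mRNA levels in caput. Atp5sl, now Dmac2, gave 128 reads in KO testis and 155 in WT testis, with 5.26 RPKM in KO caput and 7.61 RPKM in WT caput. Cox6c, the most abundant member in caput, gave 139 reads in KO testis and 71 in WT testis. Ndufv1 gave 68 in KO and 139 in WT, and Ndufaf3 gave 71 in KO and 76 in WT. Their most abundant single sequences in testis, with the first base in capitals, are printed to show these fragments.
Cox6c: Tccaaagaagttcattgctgacctgcgctc
Atp5sl: Tacctattggctggctcactgcaggagctc
Ndufv1: Taaggaccgagagatcatgcgtcatgacc
Ndufaf3: Gatgctggaacctaggatagagattgttgt
All 4 match the sense strand. The Cox6c sequence was read 28 times in KO testis and 0 times in WT testis, and the Ndufv1 sequence 0 times in KO testis and 44 times in WT testis. The Atp5sl sequence was read 9 times in KO testis and 22 times in WT testis, and the Ndufaf3 sequence 21 times in KO and 15 times in WT. A single sequence can thus set much of the count of a member in a library.

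The authors' mRNA class leaves out part of the family. Of the 86 members, 69 had an mRNA-class fragment in a library, and a further 16, all of them Atp5 genes, had fragments only in other classes, chiefly one named for mitochondrial RNA. Entries of that class gave 43 member reads in KO caput and 97 in WT caput at 13 months, a log2 ratio of -1.58 (-2.14 to -1.05), and 89 in KO testis and 92 in WT testis, one of -0.25 (-0.68 to 0.19). Atp5a1, the alpha subunit, gave 6 such reads in KO caput and 16 in WT caput. With members of any class counted, the caput log2 ratio was -2.04.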

How the data were processed

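RPKM values of RefSeq transcripts are the authors' own, made with GFOLD 1.1.3 per the file headers, which give 13929327 reads for KO and 14348655 for WT. The log2 fold changes and GFOLD values of the deposited table were used as alternatives, and the deposited E-FDR, a false discovery rate rather than a p-value, is 1 throughout the 28344 transcripts. Per the submitters' processing notes, TopHat2, Bowtie 0.12.7 and the mm9 build were used; their roles are not given. The small RNA files give, per the file headers, a count of reads per distinct sequence with its matched entry; in the 2-month files, where some counts had become dates through spreadsheet software, the count was read back from the month in 5419 lines for KO and 5531 for WT. Small RNA libraries held 3855476 to 29049669 classified reads; a value of 0 there allows up to 3 counts.

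Genes were reduced to the transcript with the highest mean RPKM, and 42 symbols turned into dates were restored by accession. RefSeq renamed 4 members (Atp5f1 is Atp5pb, Atp5s is Dmac2l, Atp5sl is Dmac2, Cox4nb is Emc8). A pseudocount of 1 was used. Reads behind 84 of 86 members were recovered as whole numbers that meet both RPKM values and the deposited log2 fold change within rounding; Atp5b and Ndufs5 had several solutions. Intervals are exact: conditional binomial for ratios, Clopper-Pearson for shares, Poisson for rates. Reads carry no molecular identifiers.

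Named members are the restricted paralogues and their counterparts, every called member, the 3 with the highest mean and the highest and lowest difference per group; a member that this rule names is not reported here. Members and lists were chosen with earlier results of these data known. Python 3.11.15, numpy 2.4.6, pandas 2.3.3, scipy 1.17.1 and matplotlib 3.10.9 were used. Alternatives covered pseudocounts, filters, centring, transcripts, the deposited fold changes and the choice of fragments.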

Additional observations from a re-analysis of the deposited data

Results flagged for a closer look

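In the small RNA libraries at 13 months, fragments of member mRNAs, in RPM of classified reads, ran in opposite directions between tissues. The KO over WT log2 ratio was 0.66 in corpus and 0.41 in cauda, against -2.13 in caput. Each rests on 1 KO and 1 WT library, and the difference between tissues was not tested. The share of mRNA-class reads moved with it, at 1.17% in KO and 0.993% in WT corpus, 1.38% in KO and 0.880% in WT cauda, and 0.844% in KO and 3.45% in WT caput; its part in the ratios was not tested.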

How the results depend on the processing

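No paired analysis was possible because each group has 1 library, and for the same reason leaving out a replicate could not be run. The count of members called higher, 3, became 0 when centred on the caput secretory or the ribosomal list and 5 with the log2 fold changes in the authors' deposited table, which adds Cox8a and Ndufa4. The count called lower, 6, became 34 and 18 under these centrings, and lay between 4 and 6 under the remaining settings; a pseudocount of 5 left 4, without Ndufa4l2 and Ndufaf2, and the GFOLD value of the authors' deposited table left 5, without Ndufaf2. Over all genes, calls lay between 8 and 1004 higher and between 2073 and 8078 lower. Centring on the caput secretory and the ribosomal list left 8078 and 6204 of the 15000 tested genes lower. The median of the members other than restricted paralogues was -0.90 and -0.62 under the centrings and between 0.11 and 0.30 otherwise. The median of the testis paralogues was -4.45 with a pseudocount of 5. With at least 5 RPKM in a library, the median of the complex I assembly factors was -1.10. For member fragments of 24 to 32 nt beginning with T, the log2 ratio was -4.37 in caput, 1.63 in corpus (8 reads in KO and 9 in WT) and -0.45 in testis at 13 months, and -0.064 in cauda, where 4 reads in KO and 6 in WT (-2.33 to 2.01) set no direction; per mRNA-class reads, a base added after seeing the data, as was counting entries of any class, it was -0.10 in caput and turned to -0.24 in cauda. The cause was not tested, and fragments of this length and first base were not counted over all mRNA-class reads. At 2 months 4 or 5 reads per library set no direction.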
